A study of Rattus norvegicus with 4 samples.

Results

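The forkhead (Fox) genes were taken as the rows of both peak lists whose NCBI gene ID carries a rat symbol made of Fox, 1 letter from a to s, 1 digit and, in some, a closing letter. Symbols came from RefSeq (assembly GRCr8), where 46 genes follow this rule. Of these, 17 (37.0%) had a listed m6A peak in at least 1 list, and they carried 52 of 21249 Vector peaks and 44 of 17796 FTO peaks. The whole series had 8729 genes with a peak, with transcripts without a gene ID counted among them. The share of all annotated genes with a peak was not computed. No share of a gene set with a peak therefore has a background here. The peaks come from m6A-seq of primary cardiac fibroblasts of neonatal rats (NRCFs) that received, for 48 h, either an empty plasmid (Vector) or a plasmid carrying rat FTO cDNA (FTO). FTO is a demethylase that removes m6A from RNA. Each group has 1 m6A-IP and 1 input library. The Vector libraries are titled Control with genotype WT, the FTO libraries Treat with genotype FTO overexpression, and all give heart as the tissue. The transfected cells keep their own Fto gene, so plasmid and endogenous transcripts are measured together.

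Forkhead proteins are transcription factors that share a winged-helix domain for binding DNA and are named by subfamily letter. FoxO proteins act below insulin and growth factor signals, where phosphorylation by AKT keeps them out of the nucleus. FoxM1 drives genes of the G2 and M phases of the cell cycle, FoxC proteins pattern the mesenchyme that builds the outflow tract and vessels, and FoxP proteins act as repressors in heart, lung, brain and lymphoid cells. m6A on a transcript is read by proteins that alter its decay, splicing or translation.

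A peak is a stretch of transcript in which the immunoprecipitated fragments exceed the input. The lists name each peak and give its length in bp, an Ensembl transcript and mostly a gene ID. Heights and positions were not analysed here, the lists carry no read depth, and with 1 library pair in each group no difference has a replicate check, so no p-values were computed. Less methylation and less transcript cannot be told apart from peak numbers, nor can fewer cells of a type and less RNA per cell. Fto, the transfected gene, had 3 Vector peaks and 9 FTO peaks. Peak numbers do not measure expression, so these values do not check the transfection. Of 13 fibroblast markers 8 had a peak, with 16 Vector and 13 FTO peaks. FTO peaks were fewer for 4 of these (Fn1, Pdgfra, Postn and Thy1), as many for 2 (Pdgfrb and Tcf21) and more for 2 (Ddr2 and Lum). Over all genes with a peak, 41.4% had fewer FTO peaks, 37.4% as many and 21.2% more. Col1a1, Col1a2, Col3a1, Dcn and Vim had no peak in either list. Peaks were also listed for 6 of 8 cardiomyocyte markers (23 and 25 peaks), 2 of 5 smooth muscle markers (17 and 16), 3 of 5 macrophage markers (12 and 9) and 1 of 6 endothelial markers (0 and 2). The part of these other cell types in the Fox values was not tested.

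The 17 genes with peaks spread over 9 of the 19 subfamilies. The FoxP genes held the most peaks, with 18 for Vector and 13 for FTO, followed by FoxN with 8 and 6, FoxO with 7 and 6, FoxK with 6 and 7, and FoxJ with 6 and 6. FoxM had 3 and 3, FoxC 2 and 2, FoxS 1 and 1, and FoxA 1 and 0. No member of FoxB, FoxD, FoxE, FoxF, FoxG, FoxH, FoxI, FoxL, FoxQ or FoxR had a peak. Within the subfamilies with peaks, Foxa1, Foxa3, Foxj1, Foxn1, Foxn4, Foxo1l, Foxo6 and Foxp3 had none. Whether the 29 genes without a peak were expressed was not analysed here.

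In both lists the Fox genes with peaks held about 3 peaks each, 3.06 per gene for Vector and 2.93 for FTO, beside 2.69 and 2.44 over all genes with peaks. Peaks were fewer in the FTO list for 6 of the 17 genes (35.3%), as many for 9 (52.9%) and more for 2 (11.8%). Over all 8729 genes the shares were 41.4% fewer, 37.4% as many and 21.2% more. The FTO list held 84.6% as many Fox peaks as the Vector list, and 83.7% as many peaks of all genes. With all 17 genes the Fox family therefore lay near the whole series in the total, but without Foxp2 the share was 93.6%. The median difference was 0 peaks for the Fox genes and for all genes. With the FTO numbers raised by 1.194, which evens out the totals of both lists, and rounded, 6 Fox genes had fewer, 5 as many and 6 more. Rounding leaves low numbers as they were and raises higher ones. Genes with the same higher number in both lists, such as Foxp1 and Foxj2, thus counted as more. The scaled shares over all genes were not computed.

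**Figure D1:**
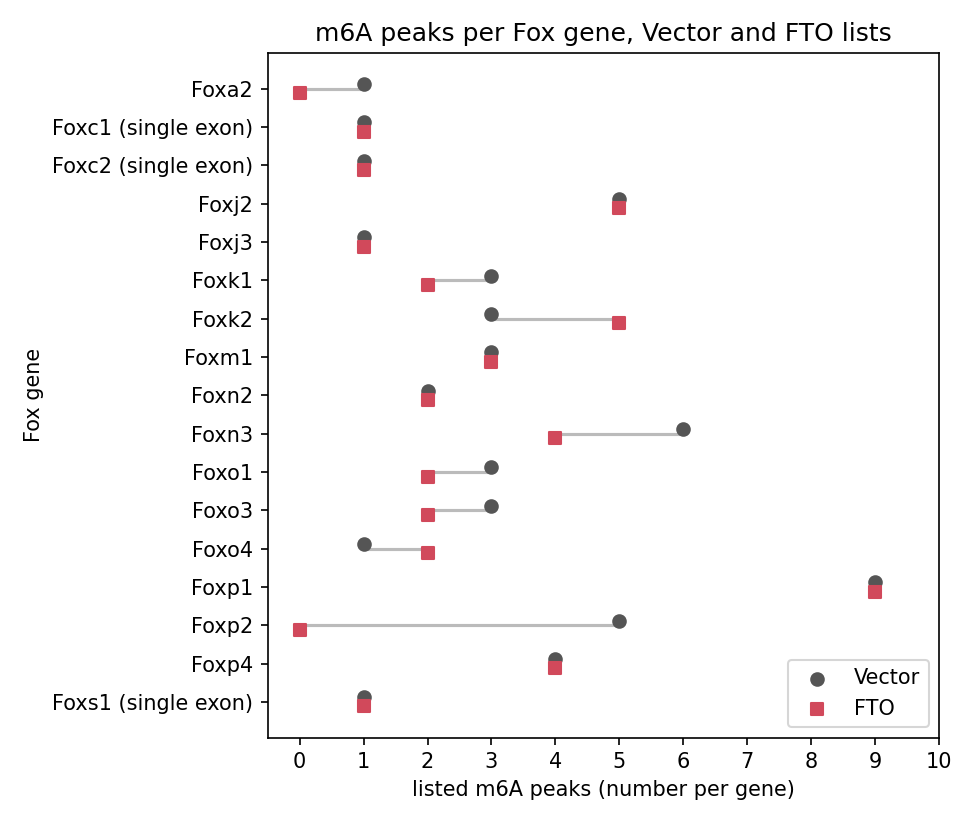
Number of listed m6A peaks (x axis) for each of the 17 Fox genes with a peak (y axis), circles for the Vector list and squares for the FTO list, joined by a line. Foxp2 has the longest line, from 5 Vector peaks to 0 FTO peaks, Foxk2 runs the other way from 3 to 5, and Foxp1 stands at 9 in both.

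Foxp2 and Foxp1 are close relatives that can pair with each other. Foxp2 (NCBI gene 500037), known for its role in speech and motor circuits, had 5 Vector peaks of 147, 189, 132, 692 and 1975 bp and no FTO peak. It thus went from 3135 bp under peaks to 0. Of the 387 genes with as many Vector peaks, 10 had no FTO peak (2.58%). Foxp2 and Foxa2 were the Fox genes with Vector peaks alone, as were 16.4% of all genes. The nearest genes with peaks on either side did not share this, since Bmt2 had 1 and 1, Rbmxl1b 1 and 1, and Mdfic 3 and 3. Without Foxp2 the family held 47 Vector peaks and 44 FTO peaks.

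Foxp1 (NCBI gene 297480), a repressor needed for heart valve and myocardial development, had 9 peaks in each list. Their lengths, in the order of the list, were 344, 167, 70, 202, 88, 205, 160, 138 and 198 bp in the Vector list, and the FTO list gave the same 9 lengths in the same order. Of the 69 genes with 9 Vector peaks, 6 had the same set of lengths in both lists (8.7%). None of these 9 peaks was longer than 344 bp, so the gene with the most peaks of the family carried 1572 bp under peaks, less than the 2703 bp of the single Foxc2 peak.

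Foxp4 (NCBI gene 363185), which acts in lung and foregut development, had 4 peaks in each list but not the same 4. The Vector lengths were 270, 236, 211 and 1765 bp and the FTO lengths 236, 211, 169 and 1887 bp. The peaks of 236 and 211 bp were common, the long peak was 122 bp longer in the FTO list, and a peak of 270 bp in the Vector list and of 169 bp in the FTO list had no partner.

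Among the FoxO genes, the main forkhead targets of AKT, most lengths recurred in both lists and the differences lay in 1 peak each. Foxo1 (NCBI gene 84482) had Vector peaks of 717, 1352 and 491 bp, of which 717 and 1352 bp were also in the FTO list. Foxo3 (NCBI gene 294515) had 171, 783 and 1436 bp in the Vector list and 783 and 1436 bp in the FTO list. Foxo4 (NCBI gene 302415) went the other way, with 746 bp in both lists and a peak of 1468 bp, on another transcript, in the FTO list alone. Together the FoxO genes had 5 peaks of equal length, from 7 Vector and 6 FTO peaks. Over all genes 57.3% of Vector and 68.4% of FTO peaks had a partner of equal length, so recurring lengths were not particular to the FoxO genes.

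The FoxK proteins, which bind phosphorylated partners through a second domain and repress autophagy genes, differed in direction. Foxk1 (NCBI gene 304298) had the longest peak of the family, 3972 bp in the Vector list and 3988 bp in the FTO list. Its peak of 227 bp was common and its peak of 186 bp was listed for Vector alone. Foxk2 (NCBI gene 303753) kept all of its Vector lengths, 119, 195 and 294 bp, and had FTO peaks of 194 and 176 bp besides. Of the 964 genes with 3 Vector peaks, 36 had at least 2 more FTO peaks (3.73%).

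Foxn3 (NCBI gene 314374), a repressor linked to the DNA damage checkpoint, had 6 Vector peaks of 2621, 106, 65, 113, 557 and 94 bp. The FTO list held 4 of these lengths, 2621, 65, 113 and 557 bp, so the peaks of 106 and 94 bp were listed for Vector alone. Foxn2 (NCBI gene 301676) had 2 peaks in each list. The one of 550 bp was common, while the other was 2572 bp long in the Vector list and 1735 bp in the FTO list on the same transcript. Whether these long peaks cover the same place was not determined.

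Foxm1 (NCBI gene 58921), the activator of mitotic genes, had 3 peaks in each list. Those of 549 and 2183 bp were common, and a second transcript carried a peak of 152 bp in the Vector list and of 65 bp in the FTO list, which differed in their place in the order. Foxj2 (NCBI gene 502886), a widely expressed activator, had 5 peaks of 769, 347, 196, 438 and 210 bp in both lists. Of the 387 genes with 5 Vector peaks, 35 had the same set of lengths in both lists (9.04%). Foxj3 (NCBI gene 313554) had 1 peak in each list, of 63 bp for Vector and 414 bp for FTO. Foxa2 (NCBI gene 25099), a factor of endoderm that opens chromatin, had 1 Vector peak of 1781 bp and no FTO peak. No FTO peak was listed for 31.5% of the 3341 genes with 1 Vector peak.

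The single-exon Fox genes with a peak had 1 long peak each. A single peak was not particular to them. In the Vector list 3 of 14 multi-exon Fox genes also had 1, among them Foxa2 with 1781 bp. Over all genes, 3341 of the 7894 with a Vector peak had 1. The class was taken from textbook gene structure, since exon numbers were not read from an annotation, and puts 14 of the 46 genes among the single-exon ones. It holds genes with the whole gene or the whole coding part on 1 exon, so some may have an intron outside the coding part. Of these, 3 had peaks, namely Foxc1, Foxc2 and Foxs1, against 14 of the 32 multi-exon genes.

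Foxc2 (NCBI gene 171356), needed for lymphatic valves and aortic arch vessels, had a peak of 2703 bp in the Vector list and of 2683 bp in the FTO list, 20 bp shorter. Foxc1 (NCBI gene 364706), its partner in cardiac and ocular mesenchyme, had a peak of 2877 bp in the Vector list and of 2983 bp in the FTO list, 106 bp longer. Foxs1 (NCBI gene 311547), found in pericytes and neural crest derivatives, had 1266 bp in both. The FTO list thus gave a shorter, a longer and an equal peak. Among the 1873 genes with 1 peak in each list, lengths were within 10% for 79.7% and equal for 61.7%, so these steady lengths were shared by most such genes.

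In the reference gene order, Foxc1 is followed directly by Foxf2 and Foxq1, and Foxc2 by Foxl1, with Foxf1 on the other side of Foxc2 and 1 gene between. Neither list held a peak for these 4 neighbours, so in both clusters the FoxC gene was the member with a peak.

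The 3 single-exon peaks were longer than most peaks of the series. In the Vector list 98.3% of all peaks were no longer than that of Foxc1, 98.0% no longer than that of Foxc2 and 89.3% no longer than that of Foxs1. In the FTO list the shares were 98.2%, 97.6% and 87.5%. The median length was 2703 bp over the single-exon and 227 bp over the 49 multi-exon peaks in the Vector list, and 2683 bp and 236 bp, from 41 multi-exon peaks, in the FTO list. The median over all peaks of the series was 203 bp and 228 bp.

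The classes overlapped in length. Multi-exon genes held 9 Vector peaks and 8 FTO peaks longer than the 1266 bp of Foxs1, and the longest peak of all Fox genes was that of the multi-exon Foxk1. Taking only the longest peak of each gene, the median of the multi-exon genes was 1600.5 bp in the Vector list and 1452 bp in the FTO list, between 63 and 3972 bp and between 294 and 3988 bp. By medians the classes were farther apart in number than in the longest peak. Multi-exon genes had a median of 3 Vector and 2.5 FTO peaks, from 1 to 9, and single-exon genes had 1. The classes overlapped in number too, as 3 multi-exon genes had 1 Vector peak and 1 had 1 FTO peak. With 3 genes in the single-exon class, these values describe those genes.

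**Figure D2:**
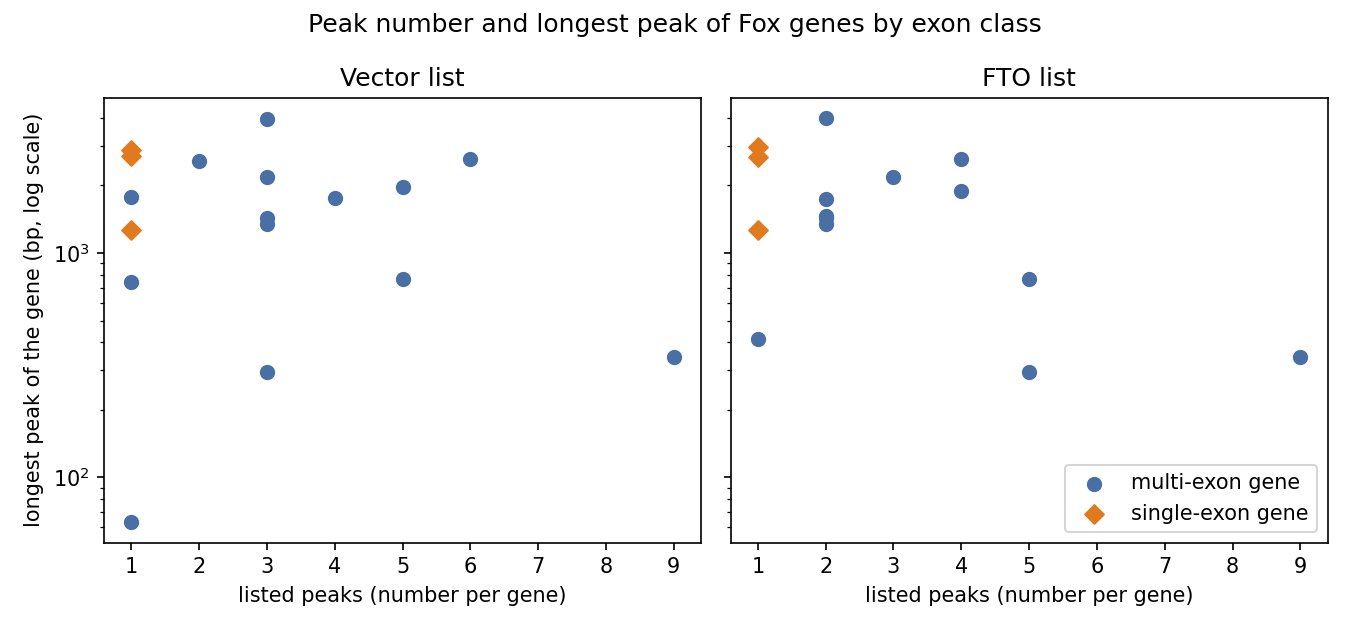
Longest peak of each Fox gene in bp on a log axis against its number of peaks, in the Vector list (left) and the FTO list (right), diamonds for single-exon and circles for multi-exon genes. The 3 single-exon genes stand at 1 peak and 1266 bp or more in both panels, and several multi-exon genes reach the same lengths with 1 to 6 peaks.

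All 3 single-exon genes had as many peaks in both lists. The 14 multi-exon genes included 6 with fewer FTO peaks (42.9%), 6 with as many and 2 with more (14.3%), beside 41.4% fewer and 21.2% more over all genes. Single-exon genes had 6846 bp under peaks in the Vector list and 6932 bp in the FTO list, and multi-exon genes 31244 bp and 26582 bp. Genes with 1 Vector peak can lose only that one, and 3 genes are too few to call this steadiness particular to the class.

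Peak by peak, 33 lengths were common to both lists within the same gene. They made up 63.5% of the 52 Vector peaks (95% Wilson interval 49.9% to 75.2%) and 75.0% of the 44 FTO peaks (60.6% to 85.4%), where the intervals cover counting error only. Over all genes the shares were 57.3% and 68.4%. Peaks of a gene are not independent of each other, and Foxp1 gave 9 and Foxj2 5 of the 33 common lengths, so the intervals are too narrow to place the family against all genes. Of the 17 genes, 3 had the same set of lengths in both lists, namely Foxj2, Foxp1 and Foxs1, where 21.0% of all genes did.

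A further 4 peaks had a partner on the same transcript with a length within 10%, those of Foxc1, Foxc2, Foxk1 and Foxp4. These pairs were among the longest peaks of the family, from 1765 to 3972 bp in the Vector list, and 3 of them were longer in the FTO list. The remaining 15 Vector peaks from 10 genes had no partner. Their median length was 186 bp, beside 236 bp for the peaks of equal length, and 5 of them belonged to Foxp2. The remaining 7 FTO peaks came from 6 genes and had a median length of 194 bp. A tolerance of 10% spans more bp for a long peak than for a short one. The rule thus favours long peaks as partners, here with a Vector median of 2790 bp, and leaves short ones without. These medians therefore do not show that peaks without an equal length in the other list were short, and no such medians over all genes were computed.

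**Figure D3:**
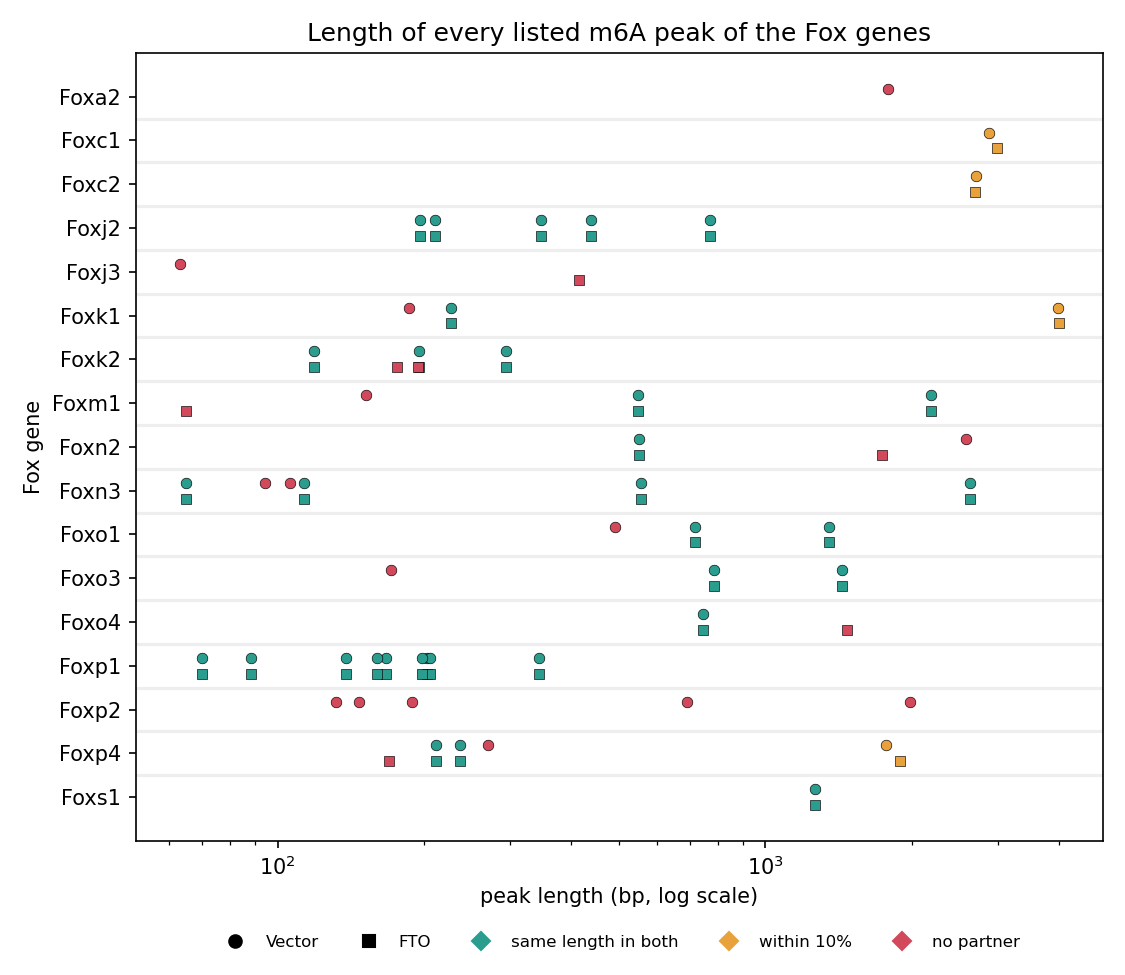
Length in bp, on a log axis, of every listed peak of the 17 Fox genes, circles for Vector and squares for FTO, coloured by whether the other list has a peak of the same length, of a length within 10%, or none. The 9 lengths of Foxp1 and the 5 of Foxj2 recur in both lists, while the 5 peaks of Foxp2 have no FTO counterpart.

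The names of the peaks end in running numbers, and these give the order of the peaks along the genome. In all 8 Fox genes with at least 2 peaks of equal length, these came in the same order in both lists, as they did in 2638 of 2644 such genes of the series. Many numbers are skipped, since 35.7% of the numbers up to the highest are listed for Vector and 34.2% for FTO. The place of each of the 22 Fox peaks without a partner was therefore looked up in the other list, between the nearest peaks common to both, a step chosen after the values were seen. At least 1 number was skipped at all 22 places. Most numbers of both lists are skipped and the rate at other places was not computed, so this count was not tested.

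The counts at these places were small in several genes. Where the FTO list has the 194 and 176 bp peaks of Foxk2, the Vector list skipped 2 numbers. Where the Vector list has the 171 bp peak of Foxo3 and the 152 bp peak of Foxm1, the FTO list skipped 1 number each. Foxp2 and its surroundings took up 18 Vector numbers, of which 5 were listed, and 20 FTO numbers, of which 0 were listed. What the skipped numbers hold was not analysed here, so a peak missing from a list was not shown to be absent from the cells.

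Klf and Sox genes are other families of transcription factors with a DNA-binding domain of their own. The table holds 36 of them by symbol, of which 17 had a peak. They had 25 Vector peaks and 30 FTO peaks, and peaks were fewer in the FTO list for 3 genes (17.6%), as many for 7 (41.2%) and more for 7 (41.2%). Under a minimum length of 200 bp, fewer FTO peaks were listed for 23.5% of the Fox genes and for 23.5% of the Klf and Sox genes. Klf12 and Sox5 had the most peaks over both lists together, each with 2 Vector peaks and 4 FTO peaks. The Fox genes with peaks had more of them per gene, 3.06 against 1.56 in the Vector list, and a lower median length, 253 bp against 927 bp. In the FTO list these were 2.93 against 1.76 peaks and 319 bp against 774.5 bp. With 17 genes in each family and no replicates, the difference between the families was not tested. The single-exon Sox genes, a list chosen after the Fox values were seen, had 2 members with a peak, Sox11 and Sox12. Each had 1 peak in each list, of 2010 and 1669 bp and of 1020 and 1020 bp.

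**Figure D4:**
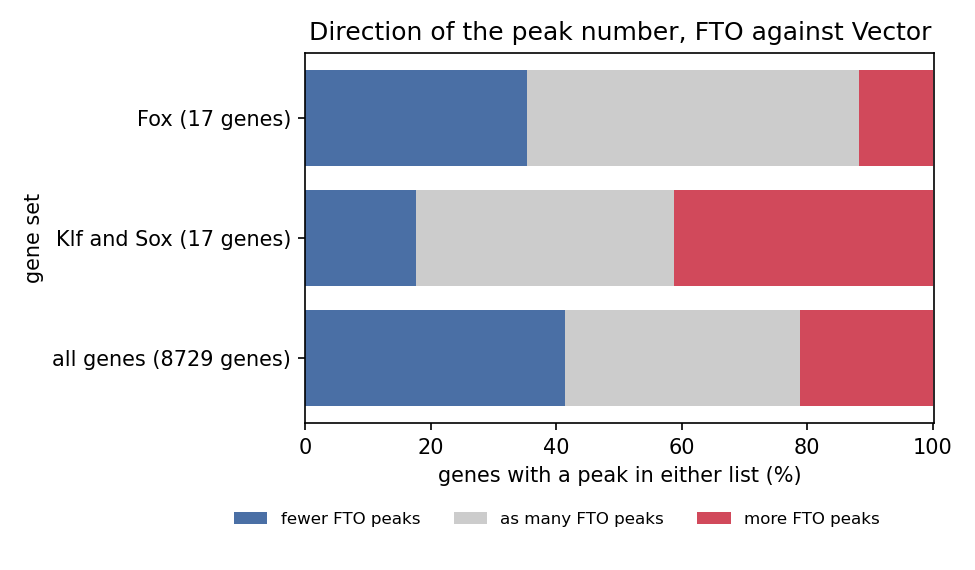
Share of genes with fewer, as many or more FTO than Vector peaks, as a percent of those with at least 1 peak, for Fox, for Klf and Sox and for all genes. Fewer FTO peaks were listed for 35.3% of Fox genes, 17.6% of Klf and Sox genes and 41.4% of all genes. Under a minimum length of 200 bp these were 23.5%, 23.5% and 27.5%.

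The proteins above and below the forkhead factors were followed in 3 hand-written lists. Of 30 regulators of FoxO proteins, which include the insulin receptor, the PI3K and AKT kinases, the 14-3-3 proteins that hold FoxO in the cytoplasm, and acetylases and deacetylases, 26 had a peak. They had 77 Vector and 63 FTO peaks, with fewer FTO peaks for 10 genes (38.5%, beside 41.4% of all genes), as many for 12 and more for 4. Among the genes that differed most in number, Akt2, a kinase that phosphorylates FoxO proteins, had 4 Vector peaks and 2 FTO peaks. Pik3ca, a catalytic subunit of PI3K, had 3 and 1, and Mapk9, a stress kinase, 2 and 0.

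Of 28 matched FoxO targets, 17 had a peak, with 29 Vector and 31 FTO peaks. Fewer FTO peaks were listed for 4 (23.5%), as many for 8 and more for 5, where 41.4% of all genes had fewer, 37.4% as many and 21.2% more. Fbxo32, a ubiquitin ligase subunit of muscle atrophy, had 4 Vector peaks and 6 FTO peaks. Sesn3, a stress-induced inhibitor of mTORC1, had 0 and 2, the pro-apoptotic Bcl2l11 0 and 1, and Rbl2, a pocket protein of quiescence, 3 and 1.

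Of 20 FoxM1 targets, 11 had a peak, with 39 Vector and 13 FTO peaks. Fewer FTO peaks were listed for 10 of the 11 (90.9%), beside 41.4% of all genes, and as many for 1, while Foxm1 itself had 3 in each list. Cenpf, a kinetochore protein, had 16 Vector peaks and 8 FTO peaks. The checkpoint kinase Bub1b had 6 and 0, the mitotic kinase Aurka 2 and 0, and the survivin gene Birc5 3 and 1. Skp2 is in both this list and that of FoxO regulators. Cell cycle genes were known to carry fewer FTO peaks when this list was used, so its count is not independent evidence of a direction.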

How the data were processed

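m6A-seq libraries, 1 m6A-IP and 1 input in each group, were made by the authors from NRCFs and sequenced on a NovaSeq platform. The submitters' processing notes name cutadapt 1.9.3, HISAT2 2.0.4 and rn6. Peak names begin with MACS, while the caller's version, settings and threshold are not given in the sources used here. The deposited files, 1 peak list for Vector and 1 for FTO, hold the peak length in bp as the authors called it, not normalized. Depth is unknown, and a deeper library can give more and longer peaks.

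Symbols were matched on the gene ID in the RefSeq table of GRCr8 (7489 of 7723 IDs for Vector, 6920 of 7145 for FTO), used for names and gene order only. Peaks without a gene ID, 248 and 213, could not belong to a Fox gene here. In the values over all genes each transcript of such peaks was counted as a gene. Peaks were paired 1 to 1 by gene and length. The members and lists were chosen with earlier results of these data known. All Fox genes with a peak are named, with the 4 genes of each list that differed most in number, ties by symbol, and the 2 Klf or Sox genes with the most peaks. Of these, 1 gene is not reported here. Other genes are named as markers or neighbours. The pairing was tested on simulated lists, in which changed lengths exceeded those of all listed peaks. That check could not show how often different peaks of a gene share a length. Python 3.11.15, numpy 2.4.6, pandas 2.3.3, scipy 1.17.1 and matplotlib 3.10.9 were used. Alternatives were minimum lengths, other pairing rules, scaling by list size, counting equal lengths once and, chosen after seeing the data, leaving out Foxp2.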

Additional observations from a re-analysis of the deposited data

How the results depend on the processing

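Of 90 values under the alternatives, 78 stayed within 1.5 times the count or length or within the 95% Wilson interval of the share. Several of these could not move, as Foxp2 has no FTO peak and all single-exon peaks are longer than 200 bp. Shares of few genes also have wide intervals, so this tally does not measure stability. Keeping peaks of at least 200 bp left 32 Vector and 29 FTO peaks of Fox genes, of which 29 and 26 were on multi-exon genes with median lengths of 557 and 553.5 bp, as the shorter peaks were removed. With minimum lengths of 100 and 200 bp, 38.5% and 27.5% of all genes had fewer FTO peaks, and 7 and 4 Fox genes (41.2% and 23.5%), beside 17.6% and 23.5% of Klf and Sox genes. Scaling by list size left 5 Fox genes with as many peaks and 6 with more, with no scaled shares over all genes to set beside them. Accepting any peak of the same gene paired 78.8% of Vector and 93.2% of FTO peaks. Pairing within the transcript or with lengths within 10%, counting equal lengths once and leaving out Foxp2, which was chosen after seeing the data, moved none of their values by more. The comparison limited to genes whose exon class an annotation also gives was not run, as no exon numbers were used. No paired analysis was possible because there is 1 m6A-IP and 1 input library per group, and no replicate could be left out. Depth is unknown, and its part in the peak numbers was not tested.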
